A study of Arabidopsis thaliana with 6 samples.

Results

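The genes described here encode enzymes and expansins that loosen, build or decorate the polysaccharides of the plant cell wall. They were taken as every gene named alone by a probe set in the platform annotation whose symbol, with or without the species prefix AT, begins with EXPA, EXPB, EXLA, EXLB, XTH, GH9, TBL, CESA or CSL followed by a letter or digit. This gave 47 genes with 1 probe set each, out of 8854 genes named alone by at least 1 of the 16129 probe sets of the table. They comprise 11 expansins, 6 XTH genes, 6 GH9 genes, 8 CSL genes and 16 TBL genes, and no CESA gene is named under this rule. The choice used symbols and no measured value, and 47 of 47 matched a locus in the RefSeq gene table (assembly TAIR10.1).

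The series addresses how glycerol-3-phosphate (G3P), a phosphate ester of glycerol from which glycerolipids are made, alters transcripts in leaves that did not receive it. G3P plants had a primary leaf infiltrated with leaf exudate in MgCl2 plus G3P, and mock plants with exudate in MgCl2 alone, so both groups received exudate. All plants were Arabidopsis thaliana of the Columbia ecotype, labelled Col-0, aged 3 to 4 weeks and grown with 14 h of light a day at 22 degrees C and 65% humidity. Distal leaves were collected 24 h later, and 3 biological replicates a group, each from its own set of plants, were hybridised to 1 ATH1 array each.

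A growing plant cell is held by cellulose microfibrils tethered by hemicelluloses such as xyloglucan and embedded in pectin. Expansins slacken these contacts without cutting them, XTH proteins cut and rejoin xyloglucan chains, and GH9 proteins are endo-glucanases that act on cellulose or related glucans. CSL proteins include enzymes that make hemicellulose backbones in the Golgi, and TBL proteins include the transferases that add acetyl groups to xylan, mannan and xyloglucan. In leaves, expansins and XTH proteins are best known for their part in cell expansion.

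Of the 47 genes, 0 passed the comparison of G3P with mock at an adjusted p under 0.05 (limma, Benjamini-Hochberg adjusted over the whole table, smallest adjusted p among the 47 of 0.912), where 0 of 16129 probe sets (0.0%) passed. At an unadjusted p under 0.05 limma gave 1 of the 47 (2.13%), against 3.08% of all probe sets. The exact rank-sum test gave 0, and with 3 arrays against 3 its two-sided p cannot go below 0.1. The log2 differences, taken as G3P minus mock of log2(signal + 16), ran from -1.66 to 0.50. They were negative for 33 of 47 genes with a median of -0.28, against 53.5% negative and a median of -0.03 over all probe sets. After quantile normalization 30 of 47 were negative with a median of -0.15, beside a median of 0.01 over all probe sets. Groups did not overlap for 2 of the 47 (4.26%), both with all G3P arrays below all mock arrays, where 8.64% of all probe sets did not overlap and 4.37% lay in that direction. The added constant of 16 understates the difference of dim probe sets.

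One array, G3P replicate 3, stood apart. Across all probe sets its log2 signals had correlations of 0.842 to 0.913 with those of the other arrays, which had 0.930 to 0.961 with each other. Of all 16129 probe sets, 3.81% were on this array more than 1 log2 unit lower than on any other, and 3.78% more than 1 unit higher. Of the 47 wall genes, 10 (21.3%) were more than 1 unit lower there and 1 (2.13%) more than 1 unit higher. No other array had more than 1 of the 47 over 1 unit outside on either side. Without G3P replicate 3 the median difference of the 47 genes was -0.11, with 30 of 47 negative, against -0.01 and 51.8% over all probe sets, and 0 probe sets passed. The leaf label was checked against 16 mesophyll markers, of which 5 had a named probe set (RCA, LHCB4.1, LHCB4.2, PSAN and PSBW). Their summed signal was 99878, 93644 and 42978 on G3P replicates 1, 2 and 3, against 118160, 98891 and 99164 on mock replicates 1, 2 and 3. LHCB4.1, LHCB4.2, PSAN and PSBW were each lowest on G3P replicate 3. RCA was lowest on G3P replicate 1, at 8959 units against 10471 on G3P replicate 3. The vascular sugar exporter gene SWEET11, the only named probe set among 10 vascular markers, had 4889, 4582 and 12654 in G3P leaves and 4859, 5521 and 6429 in mock leaves. Of the other lists, 0 of 8 guard cell and epidermis, 0 of 6 root and 0 of 7 flower and meristem markers had a named probe set. The check could therefore not show tissue of those types in the samples. The part of these shifts in the wall gene values was not tested, and in whole leaves fewer cells of a type and less RNA per cell cannot be told apart.

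**Figure D1:**
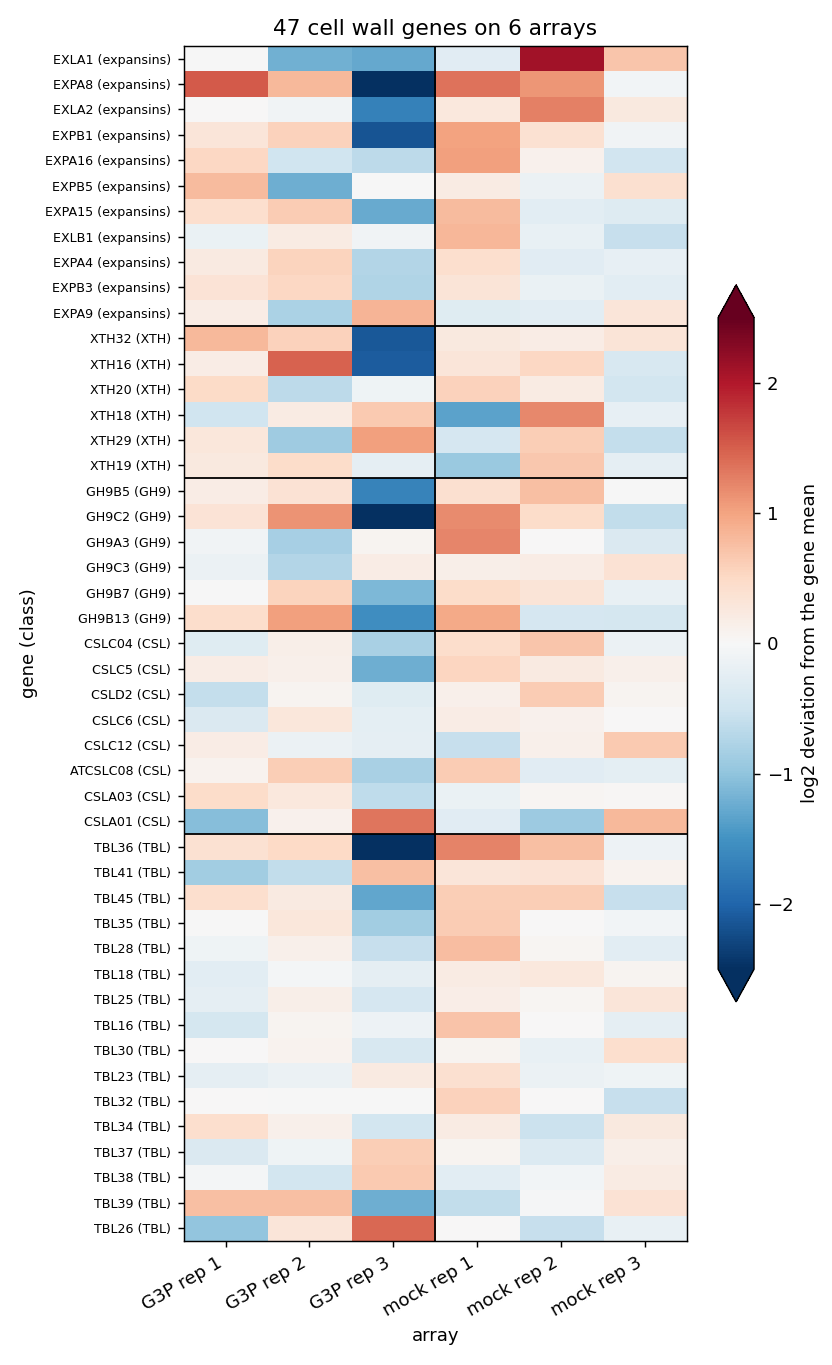
Each row is 1 of the 47 wall genes, grouped by class, and each column 1 array. Colour gives the log2 deviation of log2(signal + 16) from the gene's mean over the 6 arrays, with deviations beyond 2.5 units shown at the end colours. The column of G3P replicate 3 holds most of the strong low values, EXPA8, GH9C2 and TBL36 among them.

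Among the expansins, the alpha-expansin gene EXPA8 (AT2G40610) had the lowest array relative to the others of all 47 genes. Its signals were 5196, 3132 and 51.9 intensity units on G3P replicates 1, 2 and 3, against 4581, 3858 and 1694 on mock replicates 1, 2 and 3. The first 2 G3P arrays lay within or above the mock range, and the third lay 4.65 log2 units below the lowest of the other 5 arrays. The log2 difference was -1.59 ± 1.45 (SE; 95% interval -4.95 to 1.77; limma, adjusted p = 0.912), and without G3P replicate 3 it was 0.38. The beta-expansin gene EXPB1 (AT2G20750) behaved alike, with 183, 224 and 20.2 units in G3P leaves and 307, 193 and 137 units in mock leaves. Its difference was -0.86 ± 0.69 (SE) with all arrays and 0.0033 without G3P replicate 3.

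The expansin-like A genes encode proteins that share the expansin fold but for which wall-loosening activity has not been established. EXLA1 (AT3G45970) had 1130, 491 and 464 units in G3P leaves, against 933, 4965 and 1852 units in mock leaves. G3P replicates 2 and 3 lay below all mock arrays, and G3P replicate 1 lay between mock replicates 1 and 3, so the groups overlapped. Its log2 difference of -1.66 ± 0.60 (SE; 95% interval -3.05 to -0.27) was the 1 of the 47 with an unadjusted p under 0.05 (limma, unadjusted p = 0.0247, adjusted p = 0.912). Mock replicate 2 lay 1.42 log2 units above the other 5 arrays. The difference was -1.03 without it, -1.44 without G3P replicate 3 and -2.22 without mock replicate 1. EXLA2 (AT4G38400) had 47.6, 44.1 and 3.70 units in G3P leaves and 60.1, 136 and 59.5 units in mock leaves. All 3 G3P arrays were below all 3 mock arrays. Its probe set was among the dimmest 25% of the table, and its difference was -1.18 ± 0.55 (SE; limma, adjusted p = 0.912), or -0.63 without G3P replicate 3, -1.87 with a pseudocount of 1 and -0.64 with 64. EXLB1 (AT4G17030), of the expansin-like B type, had 164, 217 and 174 units in G3P leaves, against 344, 162 and 119 units in mock leaves, which enclose them.

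The remaining expansin genes had differences between -0.44 and 0.17, and each had overlapping groups. EXPA4 (AT2G39700), an alpha-expansin, had 883, 1116 and 448 units in G3P leaves and 1017, 614 and 650 units in mock leaves. EXPA16 had 306, 143 and 127 units in G3P leaves, against 442, 229 and 146 units in mock leaves. EXPA9 had 89.4, 37.7 and 151 units in G3P leaves and 59.6, 61.6 and 97.6 units in mock leaves, and EXPA15 had 113, 134 and 24.0 units in G3P leaves and 150, 64.7 and 60.9 units in mock leaves. EXPB3 had 279, 317 and 121 units in G3P leaves and 274, 190 and 177 units in mock leaves. In EXPA4, EXPA15 and EXPB3, as in EXPA8 and EXPB1, G3P replicate 3 was the lowest of the 6 arrays. It was the lowest array for 8 of the 11 expansin genes, against 28.0% of all probe sets. EXPB5 departed on another array, with 102, 13.3 and 51.9 units in G3P leaves and 62.5, 46.1 and 74.3 units in mock leaves, so that G3P replicate 2 was 1.08 log2 units below the others. Its difference was -0.30 ± 0.52 (SE), and 0.24 without that array. Over the class 8 of 11 differences were negative with a median of -0.30, and leaving out 1 array moved it to -0.0045 (G3P replicate 3), -0.037 (mock replicate 1) or -0.77 (G3P replicate 1). After quantile normalization 6 of 11 were negative with a median of -0.15, and with a pseudocount of 64 the median was -0.12.

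**Figure D2:**
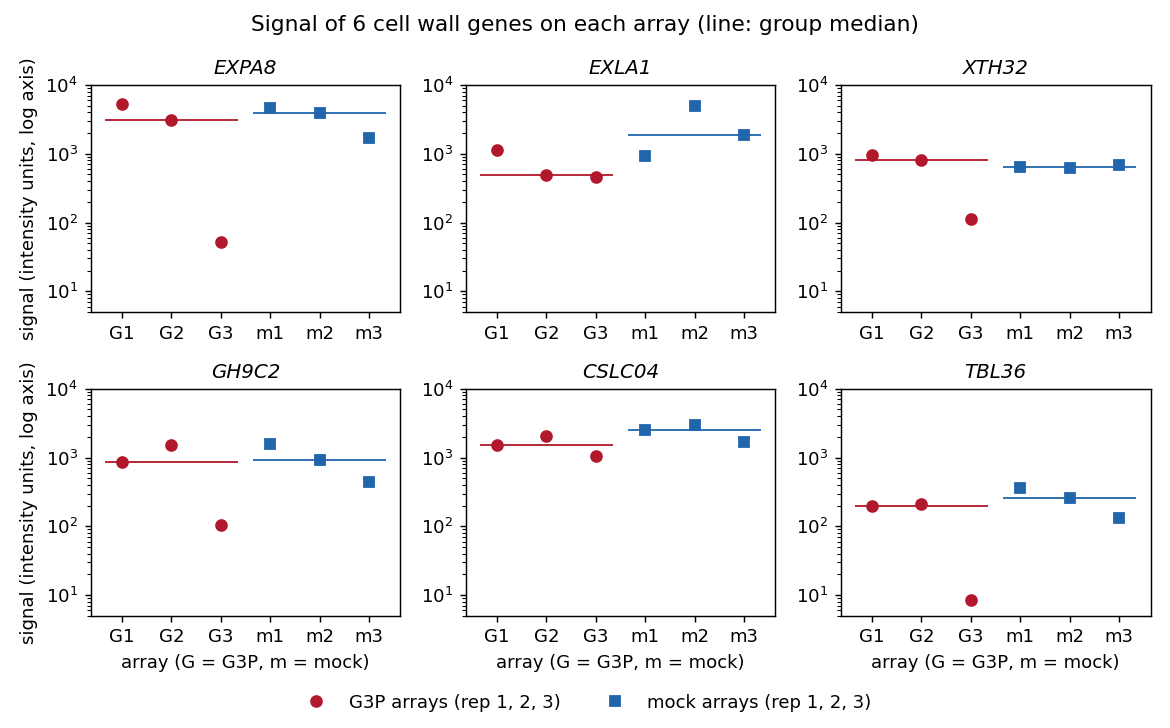
Signal in intensity units on a logarithmic axis for 6 genes, with G3P replicates 1 to 3 on the left (red circles, G1 to G3), mock replicates 1 to 3 on the right (blue squares, m1 to m3) and a line at each group's median. EXPA8, XTH32, GH9C2 and TBL36 have 1 low point each, on G3P replicate 3, whereas EXLA1 has a high point on mock replicate 2 and CSLC04 has overlapping groups with no array far from the others.

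The XTH genes showed no common direction, with 3 of 6 differences positive and a median of 0.01. Leaving out 1 array gave 0.20 (G3P replicate 3), 0.28 (mock replicate 2) or -0.21 (mock replicate 3) for this median. XTH32 (AT2G36870) belongs to the subgroup of the family that includes xyloglucan-hydrolysing enzymes. It had 963, 817 and 113 units in G3P leaves, against 644, 622 and 686 units in mock leaves. The mock arrays were close together (SD 0.07 log2 units, n = 3), with 2 G3P arrays above them all and G3P replicate 3 2.30 log2 units below them. The difference was -0.50 ± 0.69 (SE; 95% interval -2.10 to 1.11; limma, adjusted p = 0.925), and 0.44 without G3P replicate 3. XTH16 had 78.3, 213 and 3.39 units in G3P leaves, against 85.5, 103 and 46.0 units in mock leaves, again with G3P replicate 3 lowest. Its difference of -0.28 ± 0.82 (SE) was 0.69 without that array.

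XTH19 (AT4G30290) and XTH18 (AT4G30280) are next to each other in the RefSeq gene order, and both encode xyloglucan endotransglucosylase/hydrolases. XTH19 had 401, 465 and 284 units in G3P leaves and 167, 547 and 285 units in mock leaves, a difference of 0.32 ± 0.41 (SE; limma, adjusted p = 0.919). XTH18 had 27.5, 54.9 and 81.3 units in G3P leaves and 8.41, 127 and 37.4 units in mock leaves. Both had their lowest signal on mock replicate 1 and their highest on mock replicate 2, so that the mock arrays alone spanned the whole range. Without mock replicate 1 the difference of XTH19 was -0.07. XTH29 had 44.6, 11.1 and 85.5 units in G3P leaves, against 21.2, 61.0 and 16.9 units in mock leaves (difference 0.27 ± 0.58, SE). XTH20 had 61.6, 19.4 and 35.8 units in G3P leaves, against 66.9, 48.3 and 24.4 units in mock leaves (difference -0.20 ± 0.44, SE). The probe sets of XTH16, XTH18, XTH20 and XTH29 were in the dimmest 25% of the table.

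The GH9 genes had 6 of 6 negative differences with a median of -0.52, and 0 of 6 passed; 5 of 6 were negative after quantile normalization or with a pseudocount of 64, where GH9B13 turned. Without G3P replicate 3 the median was -0.01 and 3 of 6 were negative. GH9C2 (AT1G64390) encodes an endoglucanase of class C, whose members carry a carbohydrate-binding module. It had 863, 1505 and 106 units in G3P leaves, against 1564, 937 and 439 units in mock leaves. G3P replicates 1 and 2 lay within the mock range, and G3P replicate 3 lay 1.90 log2 units below the lowest of the rest. Its difference was -0.69 ± 0.89 (SE; limma, adjusted p = 0.919), and 0.39 without that array. GH9B7 (AT1G75680), a secreted class B member, had 1078, 1621 and 491 units in G3P leaves and 1497, 1367 and 952 units in mock leaves. Its difference was -0.39 ± 0.42 (SE), and 0.08 without G3P replicate 3.

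The other 4 GH9 probe sets were in the dimmest 25% of the table. GH9B5 had 52.8, 61.0 and 2.95 units in G3P leaves, against 63.6, 85.1 and 43.7 units in mock leaves, a difference of -0.75 ± 0.57 (SE) that was -0.11 without G3P replicate 3, -1.41 with a pseudocount of 1 and -0.36 with 64. GH9B13 had 57.6, 94.5 and 2.43 units in G3P leaves, against 87.8, 24.1 and 23.6 units in mock leaves. Its difference of -0.05 ± 0.72 (SE) turned to 0.72 when G3P replicate 3 was left out and to 0.41 when mock replicate 1 was. GH9A3 (AT4G24260), a class A member related to the membrane-anchored glucanase KORRIGAN, went otherwise. It had 42.3, 18.9 and 49.0 units in G3P leaves and 128, 46.5 and 32.7 units in mock leaves, with mock replicate 1 highest, and its difference of -0.58 ± 0.49 (SE) was -0.12 without that array. GH9C3 had 25.2, 11.3 and 36.0 units in G3P leaves and 34.6, 36.2 and 42.6 units in mock leaves (difference -0.47 ± 0.39, SE, and -0.21 without G3P replicate 2).

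**Figure D3:**
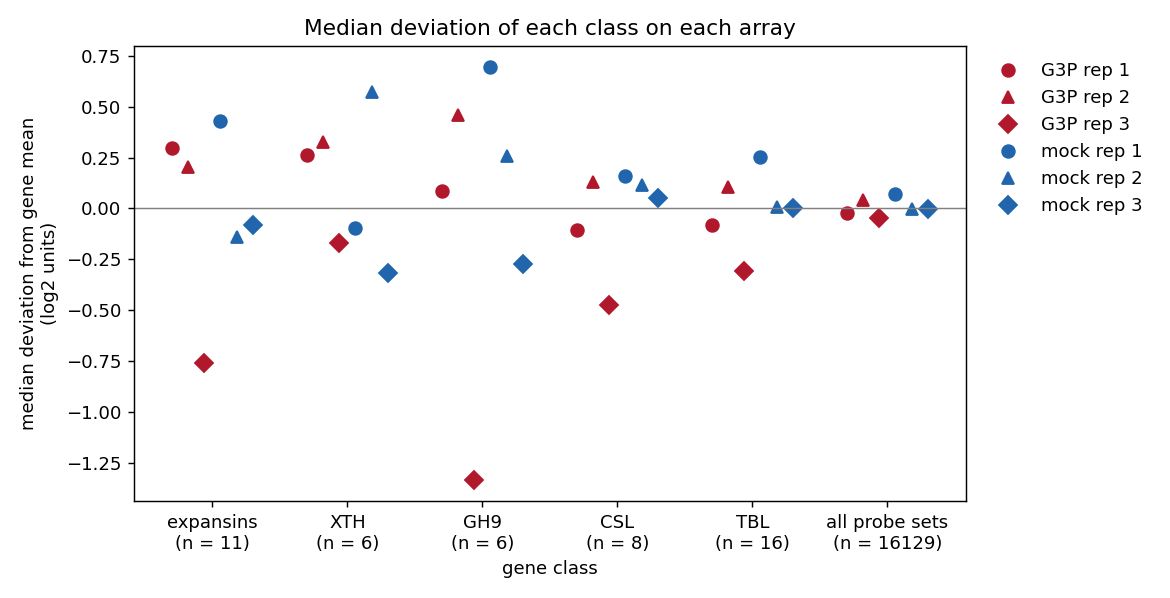
The vertical axis gives, for each array, the median over a class of the members' log2 deviations from their own means over the 6 arrays, with G3P arrays in red left of mock arrays in blue and replicate number by symbol. G3P replicate 3 lies at -1.34 for GH9 and -0.76 for expansins, at -0.17 for XTH and at -0.05 for all probe sets.

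The classes thus differed in how they stood on G3P replicate 3. The median deviation from the gene's own mean on that array was -1.34 for the 6 GH9 genes, -0.76 for the 11 expansins, -0.47 for the 8 CSL genes, -0.31 for the 16 TBL genes and -0.17 for the 6 XTH genes, against -0.05 over all probe sets. On G3P replicates 1 and 2 the same medians lay between -0.11 and 0.46. On the mock arrays they lay between -0.32, for XTH on mock replicate 3, and 0.70, for GH9 on mock replicate 1. These class medians rest on few genes that share the same arrays, and the difference between classes was not tested.

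The CSL genes had 6 of 8 negative differences with a median of -0.17. The CSLC group makes the glucan backbone of xyloglucan, and all 5 measured CSLC genes had negative differences, with a median of -0.21. Leaving out single arrays gave 4 or 5 negative, with a median of -0.14 for G3P replicate 3, where CSLC08 turned to 0.32, and of -0.44 for mock replicate 1, where it turned to 0.23. CSLC12 turned to 0.17 when mock replicate 3 was left out. CSLC04 (AT3G28180), known for xyloglucan backbone synthesis, had 1510, 2059 and 1053 units in G3P leaves, against 2536, 3021 and 1697 units in mock leaves. Of the G3P arrays 2 lay below all mock arrays and G3P replicate 2 lay between mock replicates 3 and 1. Its difference was -0.66 ± 0.31 (SE; 95% interval -1.39 to 0.07; limma, unadjusted p = 0.0706, adjusted p = 0.912). It was negative with each array left out, from -0.89 without G3P replicate 2 or mock replicate 3 to -0.41 without G3P replicate 3. CSLC5 (AT4G31590) had 522, 495 and 187 units in G3P leaves and 670, 534 and 500 units in mock leaves, where only G3P replicate 1, above mock replicate 3, kept the groups from separating. Its difference was -0.60 ± 0.39 (SE), and -0.14 without G3P replicate 3. CSLC6 (AT3G07330) had 231, 372 and 254 units in G3P leaves, against 348, 327 and 305 units in mock leaves (difference -0.21 ± 0.25, SE), and leaving out G3P replicate 1, 2 or 3 gave -0.08, -0.40 or -0.14. CSLC08, listed as ATCSLC08, had 333, 489 and 171 units in G3P leaves and 493, 252 and 261 units in mock leaves. CSLC12 was in the dimmest 25% of the table, with 28.3 to 42.6 units in G3P leaves and 18.3 to 64.6 units in mock leaves.

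CSLD2 (AT5G16910), of the group known for tip-growing root hairs, had 177, 291 and 221 units in G3P leaves, against 302, 440 and 291 units in mock leaves. G3P replicate 2 was within 1 unit of mock replicate 3, and the other 2 G3P arrays lay below all mock arrays. The difference was -0.55 ± 0.28 (SE; 95% interval -1.19 to 0.09; limma, unadjusted p = 0.0812, adjusted p = 0.912), and -0.54 without G3P replicate 3. The CSLA genes encode glucomannan synthases, and both measured members had positive differences, the median being 0.16, but 1 of the 2 was negative with any array except mock replicate 3 left out. CSLA03 had 391, 342 and 174 units in G3P leaves and 250, 290 and 287 units in mock leaves, so that the G3P arrays spread on both sides of the mock arrays, and its difference was -0.16 without G3P replicate 1. CSLA01 was dim, with 4.49, 29.7 and 91.5 units in G3P leaves and 18.8, 6.83 and 58.3 units in mock leaves, and its difference was -0.35 without G3P replicate 3. Without G3P replicate 2 the median of the CSL class was -0.40, and without mock replicate 1 it was -0.30.

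Of the 16 TBL genes 10 had negative differences, with a median of -0.27, or -0.18 when G3P replicate 3 was left out and -0.07 when mock replicate 1 was. TBL18 (AT4G25360) had 355, 411 and 366 units in G3P leaves, against 492, 516 and 450 units in mock leaves. All 3 G3P arrays were below all 3 mock arrays, and G3P replicate 3 lay between the other G3P arrays. Its difference was -0.35 ± 0.20 (SE; 95% interval -0.82 to 0.11; limma, unadjusted p = 0.116, adjusted p = 0.912). With each array left out it stayed between -0.41 and -0.31. TBL36 (AT3G54260) had 196, 213 and 8.46 units in G3P leaves and 366, 256 and 132 units in mock leaves, with G3P replicate 3 lying 2.60 log2 units below the rest. Its difference of -1.23 ± 0.84 (SE; limma, adjusted p = 0.912) was -0.17 without that array.

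TBL23, TBL25 and TBL26 belong to the group known to acetylate mannan, and 2 of 3 had negative differences, with a median of -0.10. When G3P replicate 3 was left out 3 of 3 were negative, with a median of -0.21. When mock replicate 1 was left out 1 of 3 was negative, with a median of 0.08. TBL25 (AT1G01430) had 918, 1193 and 798 units in G3P leaves, against 1213, 1110 and 1337 units in mock leaves, a difference of -0.34 ± 0.22 (SE; limma, adjusted p = 0.912) that was -0.21 without G3P replicate 3. TBL26 (AT4G01080) had 229, 589 and 1302 units in G3P leaves and 475, 313 and 414 units in mock leaves. It was the 1 wall gene over 1 log2 unit above the other arrays on G3P replicate 3, and it was the lowest of the 6 arrays on G3P replicate 1. Its difference of 0.50 ± 0.55 (SE) was -0.09 without G3P replicate 3. TBL23 had 421, 441 and 574 units in G3P leaves, against 652, 444 and 453 units in mock leaves.

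TBL28, TBL30, TBL32, TBL34 and TBL35 are known for xylan acetylation, and 3 of these 5 had negative differences, with a median of -0.21. The median was -0.06 when G3P replicate 3 was left out and also -0.06 after quantile normalization, and -0.08 when mock replicate 1 was left out. TBL28 (AT2G40150) had 109, 131 and 74.5 units in G3P leaves, against 216, 123 and 96.3 units in mock leaves (difference -0.37 ± 0.35, SE, and -0.08 without mock replicate 1). Its neighbour in the gene order, TBL30 (AT2G40160), had 45.5, 49.2 and 30.4 units in G3P leaves and 48.7, 37.8 and 66.6 units in mock leaves. TBL35 had 123, 153 and 60.6 units in G3P leaves, against 201, 125 and 116 units in mock leaves. TBL34 had 59.2, 44.9 and 24.9 units in G3P leaves and 48.4, 22.6 and 50.7 units in mock leaves. TBL32 had 104, 103 and 102 units in G3P leaves, which lay within the 162, 103 and 63.8 units of mock leaves. Its probe set is the 1 of the 47 whose identifier ends in _s_at, the platform's mark for probes that can match more than 1 transcript.

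Among the other TBL genes, TBL45 had 1417, 1244 and 421 units in G3P leaves and 1630, 1619 and 709 units in mock leaves, with the lowest array of each group being replicate 3. TBL16 had 98.0, 145 and 125 units in G3P leaves, against 235, 139 and 116 units in mock leaves. TBL39 had 434, 430 and 98.8 units in G3P leaves and 158, 243 and 324 units in mock leaves, so that 2 G3P arrays lay above and 1 below all mock arrays. Its difference was 0.20 ± 0.55 (SE), and 0.85 without G3P replicate 3. TBL37 and TBL38 went the other way on G3P replicate 3, where each had its highest signal. TBL37 had 254, 305 and 515 units in G3P leaves, against 346, 258 and 368 units in mock leaves, and TBL38 had 150, 109 and 253 units in G3P leaves, against 126, 147 and 182 units in mock leaves. TBL41 was dim, with 14.8, 20.7 and 78.6 units in G3P leaves and 53.4, 55.1 and 43.3 units in mock leaves. Its difference was -0.48 ± 0.48 (SE), and -0.98 without G3P replicate 3. Without that array 2 of the 16 TBL genes (12.5%) had an unadjusted p under 0.05 (limma), against 2.71% of all probe sets, and 0 passed the adjusted threshold. They were the only 2 of all 47 wall genes (4.26%), with 0 in each other class, and a difference between classes was not tested.

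**Figure D4:**
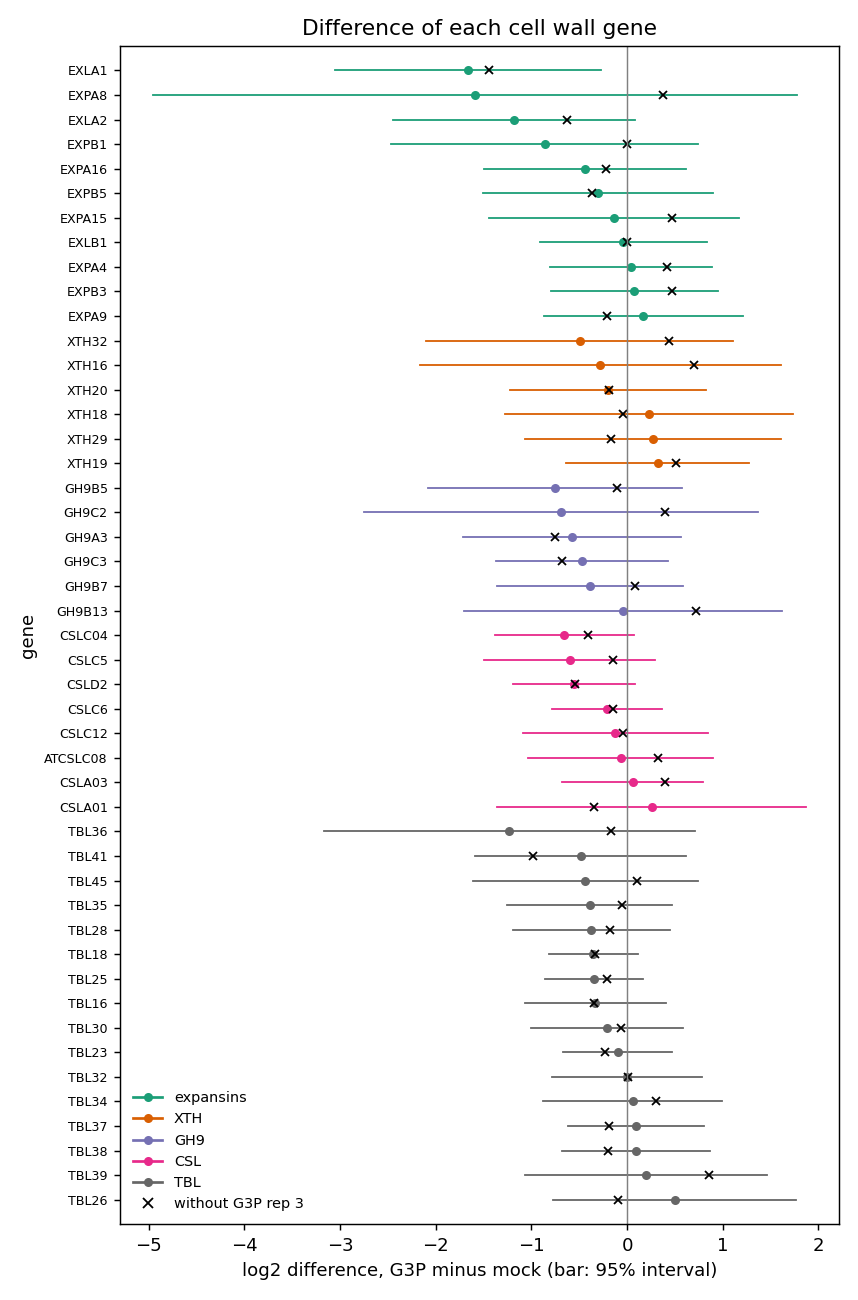
The horizontal axis gives the log2 difference of each wall gene, G3P minus mock, with its 95% interval from limma, coloured by class, and crosses mark the difference without G3P replicate 3. The interval of EXLA1, from -3.05 to -0.27, is the only one of the 47 that does not include 0, and the crosses of EXPA8, XTH32 and GH9C2 lie on the other side of 0 from their points.

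For 12 of the 47 genes (25.5%) the 95% interval stayed inside 1 log2 unit on both sides of 0, against 52.6% of all probe sets, so a 2-fold difference was not excluded for the remaining genes. By class these were 3 of 11 expansins, 0 of 6 XTH, 0 of 6 GH9, 2 of 8 CSL and 7 of 16 TBL genes. No adjustment for the number of genes was made to these intervals. Of the 47 probe sets 18 (38.3%) were in the dimmest 25% of the table, 4 of them expansins, 4 XTH, 4 GH9, 2 CSL and 4 TBL. Differences over 1 log2 unit in size were found for 4 of the 47 (8.51%), EXLA1, EXPA8, EXLA2 and TBL36, against 3.63% of all probe sets. Without G3P replicate 3 EXLA1 was the 1 of the 47 that remained, where 360 of 16129 probe sets were over 1 log2 unit in size.

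Outside these families, 6 further wall genes of a list by symbol had a named probe set, and 0 of 6 passed in either direction (limma). THE1 and FER encode receptor kinases that sense wall integrity. THE1 had 658, 603 and 466 units in G3P leaves, against 881, 930 and 675 units in mock leaves, with all G3P arrays below all mock arrays (difference -0.52 ± 0.23, SE; limma, adjusted p = 0.912). FER had 1131, 2075 and 1507 units in G3P leaves and 2235, 2341 and 1975 units in mock leaves (difference -0.51 ± 0.25, SE; limma, adjusted p = 0.912). COB, which guides the orientation of cellulose microfibrils, had 3732, 3912 and 2190 units in G3P leaves, against 3416, 3118 and 3259 units in mock leaves. The other 3 were the pectin-related genes GAUT15 and PME61 and the xylan-related gene IRX15-L, with differences of -0.56 ± 0.32, -0.05 ± 0.41 and 0.57 ± 0.37 (SE). Without G3P replicate 3 the difference of IRX15-L was 0.26, that of PME61 0.31 and that of COB 0.23, against -0.04 for COB with all arrays.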

How the data were processed

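Distal leaf RNA, isolated with Trizol and labelled with biotin per the labels' protocols, was hybridised to 1-colour Affymetrix ATH1 arrays. The deposited values are linear intensities made with Affymetrix Expression Console 1.0, per the submitters' processing notes. Summarization, scaling, genome build and choice of probe sets are not stated there. Trimmed means (2% off each end) of 747 to 754 show a shared level, so values were used as deposited, with array medians of 291 to 338. Detection calls were not used, and the number of arrays limits the precision.

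Groups came from the sample labels. The main test was limma 3.58.1 (R 4.3.3, moderated variances with a trend) on log2(signal + 16) over 6 arrays without covariates, with Benjamini-Hochberg adjustment across 16129 probe sets and a threshold of 0.05. The rank-sum test in the study's design text cannot reach that threshold with 3 against 3 and was an alternative. Of the probe sets 8950 named 1 gene, 339 several, and 6840 were not named by the annotation. No wall gene had more than 1 probe set, so the rule of taking the brightest changed nothing.

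Differences were named for the 4 members of each class with the smallest unadjusted p and the brightest, for members with non-overlapping groups and for the 3 with an array farthest from the other 5, which made 20 genes, and 5 more with an array over 1 log2 unit outside the others were added after the values were seen. Other members are described mainly by their signals, with differences of some of them where leaving out an array moved them. The members and lists were chosen with earlier results of these data known. Other settings tried were a replicate block, pseudocounts of 1 and 64, quantile normalization, array median centring, dropping the dimmest 25% of probe sets, no variance trend, averaged probe sets per gene, and each array left out.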

Additional observations from a re-analysis of the deposited data

How the results depend on the processing

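The count of wall genes past the adjusted threshold, and of all probe sets past it, was 0 in every limma alternative and with each array left out. The rank-sum test also gave 0 but could give no call. Of the 25 genes with differences followed through the alternatives, 13 kept their direction in all of them and 12 turned with an array left out. Among those 12 were EXPB5, XTH16, GH9C2, GH9B13 and TBL26, which were added after the values were seen. They were added because 1 array lay far outside the others, so the tally is tilted towards genes that turn. Members outside these 25 also turned with an array left out, CSLC08, CSLC12, CSLA01 and CSLA03 among them, and are not in this tally. Ranges over the arrays left out were -2.76 to 0.38 for EXPA8, -1.36 to 0.0033 for EXPB1, -0.77 to 0.24 for EXPB5, -1.02 to 0.44 for XTH32, -1.09 to 0.69 for XTH16, -0.071 to 0.74 for XTH19, -0.49 to 0.081 for XTH20, -0.17 to 0.78 for XTH29, -0.76 to 0.081 for GH9B7, -1.43 to 0.39 for GH9C2, -0.57 to 0.72 for GH9B13 and -0.094 to 1.12 for TBL26. GH9B13 also turned with a pseudocount of 64 (0.043) and after quantile normalization (0.055), and the cause was not tested. Pseudocounts of 1 and 64 gave differences of -1.66 and -0.79 for TBL36, -0.83 and -0.016 for XTH16, -0.76 and -0.22 for GH9C3, -0.76 and -0.35 for GH9A3 and -1.08 and -0.56 for EXPB1. Class medians ran from -0.77 to -0.0045 for expansins, -0.40 to -0.14 for CSL, -0.30 to -0.069 for TBL, -0.74 to -0.01 for GH9 and -0.21 to 0.28 for XTH with single arrays left out. The count of the 47 at an unadjusted p under 0.05 (limma), a result added after the data were seen, was 1. With single arrays left out its extremes were 0 (mock replicate 2 left out) and 3, or 6.38% (G3P replicate 1 left out). Of all probe sets 3.08% were under it with all arrays, 1.75% without mock replicate 2 and 3.62% without G3P replicate 1. With the replicate number as a block the count of the 47 was 4 (CSLC04, EXLA2, EXLA1 and TBL36), with 0 past the adjusted threshold (limma, smallest adjusted p = 0.88). No share over all probe sets is given for the block, so these 4 cannot be set against one. The block was not in the main comparison because no source ties equal numbers to the same plants. The correlation of deviations from the group mean between arrays that share a number was 0.0061, -0.10 and 0.31. Between arrays of unlike number it ran from -0.37 (G3P replicate 2 with mock replicate 3) to 0.45 (G3P replicate 2 with mock replicate 1). Dim probe sets, 18 of the 47, limit what could be measured. With the dimmest 25% of probe sets dropped, 29 of the 47 remained, with a median difference of -0.35, against -0.02 over all probe sets kept. The class medians were then -0.44 for 7 expansins, -0.09 for 2 XTH, -0.54 for 2 GH9, -0.38 for 6 CSL and -0.34 for 12 TBL genes.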
